A study of Mus musculus with 9 samples.

Results

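The genes described here are 10 genes of the Atf4 pathway, chosen by name as the regulators Atf4, Atf3, Ddit3 and Trib3 and the metabolic genes Asns, Psat1, Phgdh, Shmt2, Mthfd2 and Slc7a11. They were chosen with earlier results of these data known. They were read by 22 probe sets whose platform annotation gives 1 gene symbol, out of 29131 probe sets with 1 symbol and 36899 in all, and by 10 of 15964 named genes. Of these probe sets, 14 are on the MG-U74A array, 5 on MG-U74B and 3 on MG-U74C. Total RNA of 3 mouse stromal cell lines was hybridised once to each of these Affymetrix array types, giving 9 arrays. Of the lines, AGM-s3-A9 is hematopoiesis-supportive and AGM-s3-A7 non-supportive; both came from the aorta-gonad-mesonephros (AGM) region of the embryo, where blood stem cells arise. OP9 came from the calvaria of newborn mice and supports hematopoiesis. No treatment, genetic change, culture medium or cell density is given for any line in the sources used here, and each group is 1 line.

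Atf4 is a basic leucine zipper transcription factor that is translated preferentially when kinases such as Gcn2 and Perk phosphorylate the initiation factor eIF2, for example when amino acids are scarce or unfolded protein accumulates in the endoplasmic reticulum. It binds composite C/EBP-ATF elements and induces enzymes that make non-essential amino acids, one-carbon units and charged tRNAs, as well as transporters that import amino acids. Prolonged activity also induces Ddit3 (CHOP), Atf3 and the pseudokinase gene Trib3, which damp or redirect the response. Because much of Atf4 control is translational, its transcript is only 1 part of its activity, and the arrays do not measure the protein.

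The amino acid response core TGATGNAA was searched on both strands in the RefSeq promoter windows of assembly GRCm38.p6, which run from 250 bases before to 50 bases after a gene's start. All 10 members had at least 1 window, 11 windows in all, and 4 members held the core, Asns, Atf3, Slc7a11 and Trib3. Of 32851 windows of all genes, 3.97% held it. The 4 windows are shown because they hold the core of the element that Atf4 is known to bind. Each is written 5′ to 3′ on the gene's strand, with matches to the core, or to its reverse complement TTNCATCA, in capitals.
Asns (chr6:7693160-7693459, minus strand): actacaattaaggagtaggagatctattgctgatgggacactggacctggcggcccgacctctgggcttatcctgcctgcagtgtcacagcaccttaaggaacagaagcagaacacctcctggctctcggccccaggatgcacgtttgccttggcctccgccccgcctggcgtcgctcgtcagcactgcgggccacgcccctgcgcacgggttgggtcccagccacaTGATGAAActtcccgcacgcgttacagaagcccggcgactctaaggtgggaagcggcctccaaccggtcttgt
Atf3 (chr1:191183284-191183583, minus strand): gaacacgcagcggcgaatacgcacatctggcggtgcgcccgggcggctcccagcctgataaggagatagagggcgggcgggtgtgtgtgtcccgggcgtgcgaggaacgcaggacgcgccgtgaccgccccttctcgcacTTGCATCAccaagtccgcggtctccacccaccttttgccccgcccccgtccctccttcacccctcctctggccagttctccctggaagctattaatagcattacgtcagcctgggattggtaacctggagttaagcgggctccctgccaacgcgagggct
Slc7a11 (chr3:50443564-50443863, minus strand): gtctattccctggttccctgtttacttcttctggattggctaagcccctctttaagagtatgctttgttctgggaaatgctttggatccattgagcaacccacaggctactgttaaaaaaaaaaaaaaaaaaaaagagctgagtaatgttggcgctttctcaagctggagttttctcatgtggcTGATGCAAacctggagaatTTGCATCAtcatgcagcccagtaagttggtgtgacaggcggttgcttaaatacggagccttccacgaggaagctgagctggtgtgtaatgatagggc
Trib3 (chr2:152344011-152344310, minus strand): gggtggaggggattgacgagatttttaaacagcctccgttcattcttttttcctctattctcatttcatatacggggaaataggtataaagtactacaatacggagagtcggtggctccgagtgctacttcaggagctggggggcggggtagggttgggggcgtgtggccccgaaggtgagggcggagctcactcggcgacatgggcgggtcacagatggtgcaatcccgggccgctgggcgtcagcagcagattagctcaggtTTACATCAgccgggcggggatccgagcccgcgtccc
The match lay 23 bases before the start of Asns and 110 bases before that of Atf3, where it was on the opposite strand. Slc7a11 had a match on each strand, at 66 and 47 bases before the start, and Trib3 one on the opposite strand 15 bases after the start. The matches did not overlap. The windows of the other 6 members did not contain these letters, which says nothing of sites outside them.

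The 3 arrays of a type differed in overall brightness, so log2 intensities were quantile normalized within each array type, and all values below are such normalized intensities unless called deposited. A value counts as measured above a detection level, which is 49.0 for MG-U74A, 52.8 for MG-U74B and 61.6 for MG-U74C. That level is the higher of the median of all values and the 95th percentile of control probe sets that should find no target. Where 1 line of a pair is not above it, the fold is a lower bound. With 1 array per line and type there is no replicate error and no p-value. Differences were set beside an error estimated from the 2 brightest probe sets of a gene on the same array type. The robust SD of the difference between their log2 ratios was divided by the square root of 2, to stand for 1 probe set. The result, called the robust SD below, was 0.30 between the AGM lines (1160 genes). It was 0.31 between OP9 and the non-supportive AGM-s3-A7 (1134 genes) and 0.32 between both supportive lines (1128 genes). This spread does not cover separate cultures. Each level refers to 1 probe set and is compared between lines only.

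The stromal identity of the lines was checked on 8 stromal marker genes, of which 6 were measured in both AGM lines and 5 in OP9, Thy1 being below the detection level there. Vim and Nt5e were below it in every line, so a marker gene below that level is not shown to be absent. None of 5 endothelial and 5 hematopoietic marker genes on the arrays was above the detection level in any line. Of 4 epithelial marker genes 2 were, Epcam and Cdh1, with a summed level of the list between 205 and 250.5 in the 3 lines. In bulk RNA, fewer cells that express a gene and less RNA per cell cannot be told apart.

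Among the members, the order of the lines was the same for each gene measured in all of them: OP9 had the highest level, AGM-s3-A7 an intermediate one and AGM-s3-A9 the lowest. The supportive lines therefore lay at the ends and the non-supportive line between them. Of the 10 members, 6 were above the detection level in all 3 lines (Atf4, Ddit3, Asns, Psat1, Shmt2 and Mthfd2), 2 in AGM-s3-A7 and OP9 (Trib3 and Phgdh) and 2 in OP9 alone (Atf3 and Slc7a11). All 6 of the first group had the order OP9, AGM-s3-A7, AGM-s3-A9, which was found in 20.7% of the 7073 genes above the detection level in all lines. Both steps exceeded 2 robust SD only for Asns, Ddit3 and Mthfd2. For Atf4 and Psat1 only the step between the AGM lines did, and for Shmt2 neither. In the deposited values 5 of the 6 had the order, Shmt2 being the exception, against 19.0% of the same genes. There the step between the AGM lines was within 2 robust SD (0.60) for each of the 6. Since the members were chosen with earlier results of these data known, these shares are no test of the order.

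**Figure D1:**
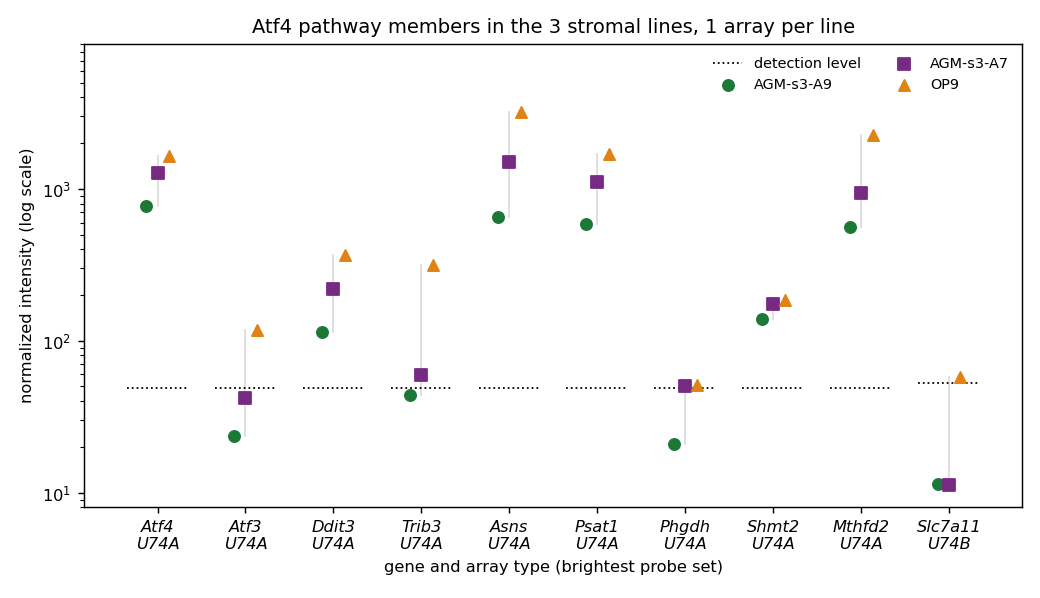
Normalized intensity on a log scale for the brightest probe set of each member in AGM-s3-A9 (circles), AGM-s3-A7 (squares) and OP9 (triangles), 1 array per point; grey lines span the 3 values and dotted lines mark the detection level of the array type. OP9 is the highest point for every gene, and Asns and Mthfd2 span 653 to 3201 and 565 to 2277.

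The transcript of Atf4 itself, which is the regulator of the set, read 1648 in OP9, 1270.1 in AGM-s3-A7 and 772 in AGM-s3-A9 on its only probe set. Relative to AGM-s3-A7, AGM-s3-A9 was thus 1.65-fold lower and OP9 1.30-fold higher, and only the AGM-s3-A9 difference exceeded 2 robust SD. Between the supportive lines it was 2.14-fold lower in AGM-s3-A9. Atf4 lies on chromosome 15, whose 372 measured genes had a median log2 ratio of -0.49 for OP9 against AGM-s3-A7. Relative to that median its log2 ratio was 0.87 in place of 0.38. Between the AGM lines the chromosome 15 median was -0.17 (AGM-s3-A9 over AGM-s3-A7), and relative to it Atf4 had -0.55 in place of -0.72, which is within the 2 robust SD of 0.60.

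Ddit3 encodes CHOP, a stress-induced partner of C/EBP proteins. It read 369 in OP9, 218 in AGM-s3-A7 and 114 in AGM-s3-A9, so relative to the non-supportive line AGM-s3-A9 was 1.90-fold lower and OP9 1.70-fold higher. The step between the supportive lines was 3.23-fold. Ddit3 had 1 probe set on these arrays. With the 75th percentile as the floor its log2 ratio between the AGM lines was -0.35 in place of -0.93, within 2 robust SD, since the AGM-s3-A9 value lies below that floor.

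Trib3, a pseudokinase gene induced by CHOP and Atf4 that restrains Akt and Atf4, read 318 in OP9, 59.5 in AGM-s3-A7 and 43.8 in AGM-s3-A9. Only OP9 stood clear of the detection level. OP9 exceeded AGM-s3-A7 by 5.34-fold and AGM-s3-A9 by at least 6.48-fold, on 1 probe set. With the 75th percentile of the array as the floor the bound against either AGM line was a log2 ratio of 0.90, under 2-fold, so the fold rests on the floor. The values of both AGM lines lay close to the detection level, and they are not ordered here.

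Atf3, an immediate-early repressor of the same family, was measured in OP9 alone. Its brightest probe set read 118 in OP9, 42.0 in AGM-s3-A7 and 23.7 in AGM-s3-A9, so that OP9 exceeded either AGM line at least 2.42-fold. Another probe set read 57.4, 47.8 and 31.3 in the same order, at least 1.17-fold higher. The remaining one read no more than 2.19 in any line. All 3 carry identifier suffixes (_f, _r) that mark possible cross-hybridisation or a relaxed probe choice, so the size of the Atf3 difference is not settled by these probe sets.

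Asns encodes asparagine synthetase, which makes asparagine from aspartate and glutamine. Its brightest probe set read 3201 in OP9, 1496 in AGM-s3-A7 and 653 in AGM-s3-A9, with a similar step on each side of AGM-s3-A7: 2.29-fold down to AGM-s3-A9 and 2.14-fold up to OP9. A second probe set on MG-U74A, with a suffix of possible cross-hybridisation, read 234, 56.9 and 29.7 in the same order. One on MG-U74C read 86.7, 27.6 and 28.5 and was above the detection level in OP9 only. The remaining 2 were below it in all lines. The 3 measured probe sets all had OP9 highest, and only the brightest measured the step between the AGM lines with both values above the detection level. In the deposited values its log2 ratios over AGM-s3-A7 were -0.55 in AGM-s3-A9 and 1.17 in OP9. Scaled by the spiked hybridisation controls they were -0.85 and 1.31, so the likeness of the steps depends on the scaling.

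The serine pathway was read mainly through Psat1, which encodes the transaminase of its middle step. The brightest Psat1 probe set read 1701 in OP9, 1106 in AGM-s3-A7 and 585 in AGM-s3-A9. Against AGM-s3-A7, AGM-s3-A9 was 1.89-fold lower and OP9 1.54-fold higher, with 2.91-fold between the supportive lines. The other 3 probe sets of Psat1, all on MG-U74B, were below the detection level in every line. The wider list of amino acid and one-carbon enzymes holds Psph, the phosphatase gene of the last serine step. It showed the same order, at 588 in OP9, 312 in AGM-s3-A7 and 139 in AGM-s3-A9. Phgdh, the dehydrogenase gene of the first step, had a single suffixed probe set that read 50.7 in OP9, 50.0 in AGM-s3-A7 and 20.8 in AGM-s3-A9. These values are at the detection level, and no difference in Phgdh was detectable.

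The mitochondrial one-carbon enzymes were read by 1 measured probe set each. Mthfd2, the methylenetetrahydrofolate dehydrogenase gene, read 2277 in OP9, 941 in AGM-s3-A7 and 565 in AGM-s3-A9, so that AGM-s3-A9 lay 1.67-fold below and OP9 2.42-fold above the non-supportive line. Its second probe set was below the detection level, at 27.0, 2.62 and 3.79 in the same order. Shmt2, which feeds one-carbon units from serine into the same organelle, read 186 in OP9, 175 in AGM-s3-A7 and 139.5 in AGM-s3-A9. Its differences of 1.25-fold and 1.06-fold were within 2 robust SD. The measured probe set of Shmt2 carries a suffix, and the second was below the detection level.

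Asns and Mthfd2 both lie on chromosome 6, whose 485 measured genes had a median log2 ratio of 0.37 for OP9 against AGM-s3-A7. Relative to this median Asns had a log2 ratio of 0.73 and Mthfd2 of 0.90, both under a fold of 2. Between the AGM lines the chromosome 6 median was -0.03 (AGM-s3-A9 over AGM-s3-A7) and Asns stayed at -1.17. The part of the chromosome-wide shift in the OP9 values of these genes was not tested.

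Slc7a11, the cystine-glutamate exchanger gene, which Nrf2 also controls, read 57.6 in OP9, 11.2 in AGM-s3-A7 and 11.3 in AGM-s3-A9 on MG-U74B. OP9 was just above the detection level, so the bound is only 1.09-fold. Its MG-U74A probe set read 14.3, 4.34 and 2.92 in that order, below the detection level in all lines. The list of Nrf2 targets is described with the other genes of the pathway.

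**Figure D2:**
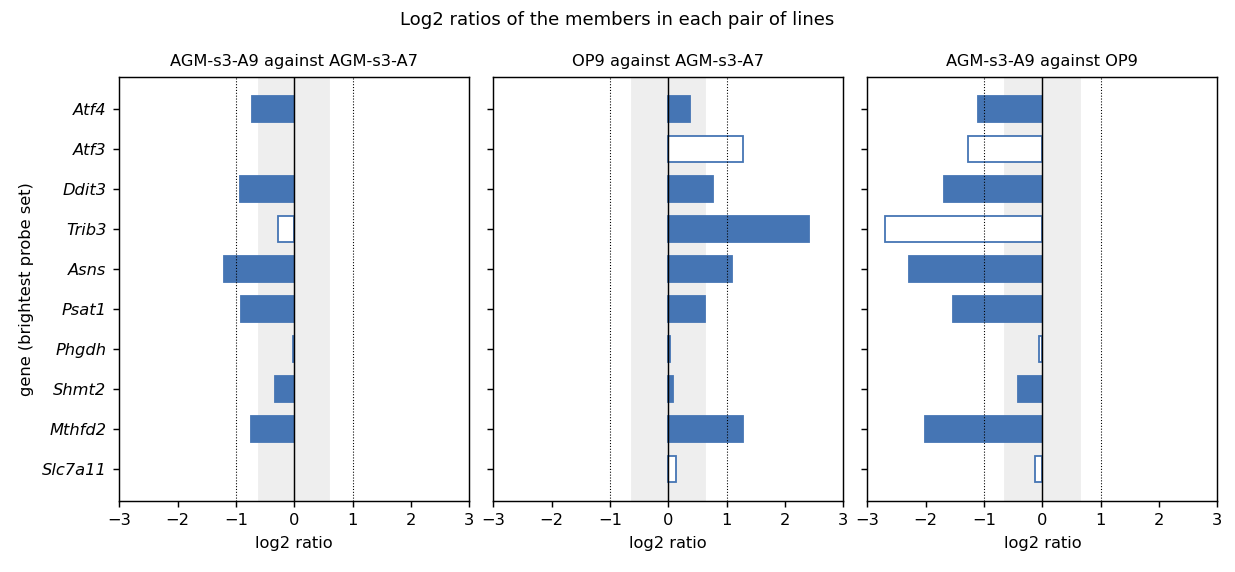
Log2 ratio of each member in the 3 pairs of lines, 1 array per line. Filled bars compare lines above the detection level, open bars are lower bounds and no bar means that both lines were at or below it. Grey bands cover 2 robust SD of 1 probe set, estimated from probe set pairs (0.60, 0.63 and 0.65), and dotted lines mark 2-fold. All bars of AGM-s3-A9 against OP9 point down, 7 of them past 2-fold; the 4 open ones could point no other way.

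By count, 8 members were measured in at least 1 of the AGM lines. Of these 1, Asns, was lower by 2-fold or more in AGM-s3-A9, and 0 were higher, against 2.28% and 3.08% of all 8590 genes measured in that pair. By over 2 robust SD, 5 of the 8 were lower (Asns, Atf4, Ddit3, Mthfd2 and Psat1) and 0 higher, against 8.17% and 9.93% of all genes. In the deposited values the log2 ratios of these 5 were -0.55, -0.10, -0.18, -0.07 and -0.30 in that order. All lay within 2 robust SD (0.60). With hybridisation control scaling only Asns, at -0.85, exceeded it, so this count depends on the scaling. For OP9 set against AGM-s3-A7, 4 of 10 members were at least 2-fold higher (Trib3, Mthfd2, Atf3 and Asns) and 0 lower, against 5.14% and 5.98% of 8739 genes. By over 2 robust SD 5 were higher, Ddit3 being added, and 0 lower, against 12.9% and 12.0%. Atf3 and Slc7a11 were measured in that pair only through OP9, where they had to be higher, so the count is no support of its own. Among the 6 members measured in all lines it was 2, Asns and Mthfd2, where 4.59% of the genes measured in all lines were higher. The arrays of AGM-s3-A7 enter both of these comparisons, and through the common normalization and detection level they bear on every value. Between the supportive lines 7 of 10 members were lower by 2-fold or more in AGM-s3-A9 and 0 higher, against 5.06% and 6.58% of 8760 genes; by over 2 robust SD it was again 7 lower and 0 higher, against 12.3% and 12.6%. Atf3, Trib3, Phgdh and Slc7a11 were measured in this pair only through OP9 and could only be lower in AGM-s3-A9, so the count over all 10 is no support either. Among the 6 members measured in all lines 5 were lower by either measure (Asns, Atf4, Ddit3, Mthfd2 and Psat1), and 4.69% of the genes measured in all lines were lower by 2-fold. The members were chosen with earlier results of these data known, so none of these counts is a test of them. In the pair of AGM lines Trib3 and Phgdh were measured only through AGM-s3-A7, and neither is among the members counted as lower.

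The median log2 ratio of the measured members was -0.73 between the AGM lines (AGM-s3-A9 over AGM-s3-A7), 0.69 for OP9 over AGM-s3-A7 and -1.41 between the supportive lines (AGM-s3-A9 over OP9). Over all measured genes these medians were 0.01, 0.04 and -0.02. Over the 6 members above the detection level in all lines they were -0.83, 0.69 and -1.61.

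The sizes of the AGM-s3-A9 values depend on how the arrays were scaled. The deposited MG-U74A array of AGM-s3-A9 was brighter throughout: the genes read on that array type had a median log2 ratio of 0.66 over AGM-s3-A7 before normalization. The deposited Atf4 intensities were 1394 in OP9, 1136 in AGM-s3-A7 and 1061 in AGM-s3-A9, and the members' median against AGM-s3-A7 was -0.10. That is 0.75 below the median of the genes of that array type, compared with 0.73 below it after quantile normalization. Scaling by the spiked hybridisation controls gave the members a median of -0.40 where those genes had 0.38, a distance of 0.77. The scalings other than quantile normalization move all probe sets of an array by 1 factor, so these distances could hardly differ and are no check on the result. The direction of single members did depend on the scaling: the deposited ratio of Shmt2 was 0.40 and that of Trib3 0.19. Over all 8806 genes measured in the deposited values, 12.8% had an AGM-s3-A9 level 2-fold or more above that of AGM-s3-A7 and 3.24% one as far below. For OP9 against AGM-s3-A7 the members' median was 0.85 both in the deposited values and under control scaling.

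**Figure D3:**
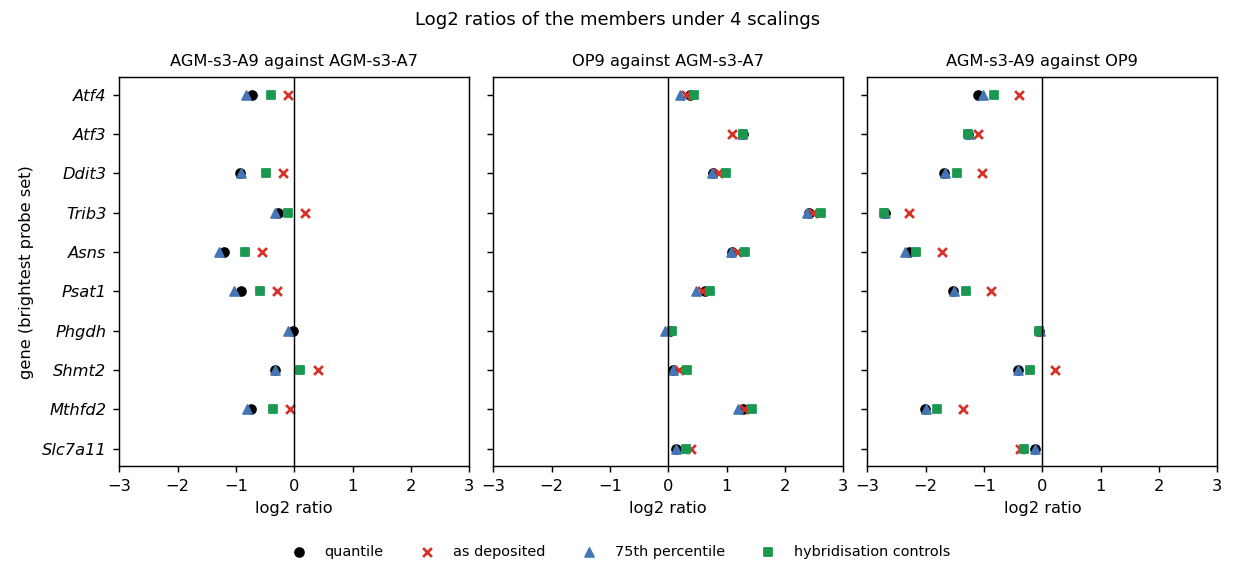
Log2 ratio of each member in the 3 pairs of lines under quantile normalization (circles), as deposited (crosses), scaled to the 75th percentile (triangles) and scaled to hybridisation controls (squares); a missing point means that both lines were at or below the detection level. The points of OP9 against AGM-s3-A7 nearly coincide, whereas deposited values shift AGM-s3-A9 upwards for the members read on MG-U74A; Slc7a11, read on MG-U74B, goes from -0.12 to -0.38 against OP9.

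Other genes of the pathway were taken from lists that do not include the members and were also chosen with earlier results of these data known. Their counts stand beside shares of all genes of 3.08% higher and 2.28% lower in AGM-s3-A9 over AGM-s3-A7, 5.14% and 5.98% in OP9 over AGM-s3-A7, and 6.58% and 5.06% in AGM-s3-A9 over OP9. Of 16 amino acid transporter genes 10 were measured in the pair of AGM lines and 11 in that of OP9 and AGM-s3-A7. Slc7a5, the light chain gene of the large neutral amino acid transporter, read 1489 in OP9, 600.2 in AGM-s3-A7 and 278 in AGM-s3-A9, a step of 2.16-fold down and one of 2.48-fold up from AGM-s3-A7. Slc1a5, the glutamine transporter gene, was 5.01-fold higher in OP9 on a suffixed probe set, and Slc7a1, the arginine transporter gene, 2.65-fold. These were the 3 that reached 2-fold in OP9, with 0 lower. In AGM-s3-A9 the list had 1 gene above AGM-s3-A7 by 2-fold, the glutamate transporter gene Slc1a3 (2.29-fold), and 1 lower, Slc7a5. Neither gene reached 2-fold in the deposited values, where Slc7a5 read 384 in AGM-s3-A9 and 493 in AGM-s3-A7 and Slc1a3 365 and 204. Of 12 transporter genes measured in the pair of supportive lines, 4 were lower in AGM-s3-A9 (Slc7a5 5.36-fold, Slc7a1 at least 3.92-fold, Slc1a5 3.31-fold and the glycine transporter gene Slc6a9 2.94-fold) and 1 higher, Slc1a3 (3.90-fold). In the deposited values 3 of 12 were lower and 1 higher, against 7.69% and 13.5% of all genes.

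All 19 cytosolic aminoacyl-tRNA synthetase genes on the arrays, which charge tRNAs with amino acids, were measured in both comparisons with AGM-s3-A7. In OP9, 3 were at least 2-fold higher (Farsb 2.82-fold on a suffixed probe set, Gars 2.67-fold and Sars 2.54-fold) and 0 lower. The median log2 ratio was 0.32 and 16 of 19 were above 0, beside 4651 of all 8739 genes. In AGM-s3-A9, 1 reached 2-fold below AGM-s3-A7, Nars (2.14-fold), and 0 above, with a median of -0.23. In the deposited values 0 reached it below and 2 above, and under control scaling 0 and 0, against 12.8% of all genes above in the former and 7.18% in the latter; the median was 0.39 and 0.10. Set against OP9, 8 of 18 were lower by 2-fold in AGM-s3-A9, led by Nars (4.27-fold), Gars (4.19-fold), Farsb (2.82-fold) and Sars (2.36-fold), and 0 higher. Of 3 Farsb probe sets measured in this pair, only 2 were lower. In the deposited values 3 of 19 synthetase genes were lower than in OP9 by 2-fold and 0 higher, against 7.69% and 13.5% of all genes. The median log2 ratio was -0.13 there in place of -0.84. Under control scaling 4 of 18 were lower and 0 higher, against 4.68% and 7.39%, so this count depends on the scaling. The Gars transcript read 1496 in OP9, 561 in AGM-s3-A7 and 357 in AGM-s3-A9. The order of the lines shown by the members was present in 11 of the 18 synthetase genes above the detection level in all lines. In the deposited values it was present in 2 of them. The shares of all genes were 20.7% and 19.0%. In the lists of stress targets, transporters and amino acid and one-carbon enzymes it was present in 8 of 15, 3 of 8 and 3 of 9. For the upstream genes it was 3 of 12, for the endoplasmic reticulum list 6 of 26 and for the Nrf2 list 3 of 8. In the deposited values these counts were 6, 3, 2, 3, 4 and 1 in that order.

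Among 17 measured genes of the list of other stress targets, 6 were lower by 2-fold or more in AGM-s3-A9 compared with AGM-s3-A7 and 1 higher; in the deposited values it was 3 and 2 of 18, against 3.24% and 12.8% of all genes. Gadd45a, a growth arrest gene that p53 also controls, read 630.4 in OP9, 315 in AGM-s3-A7 and 94.4 in AGM-s3-A9. Atf5, a factor of the same family, read 1057, 585 and 212 in that order, and Chac1, which encodes a glutathione-degrading enzyme, 619.6, 279 and 115. In OP9, 3 of the list were at least 2-fold higher (Sesn2 at least 5.30-fold on a suffixed probe set, Chac1 2.22-fold and Ddit4 2.06-fold) and 1 lower, Cebpd (2.66-fold). Cebpd, a C/EBP gene of the inflammatory response, was also 2.54-fold lower in AGM-s3-A9. Ddit4 was higher in both supportive lines, by 2.17-fold in AGM-s3-A9, and so departed from the order of the members. Between the supportive lines 7 of 17 were lower in AGM-s3-A9, led by Gadd45a (6.68-fold), Chac1 (5.39-fold), Atf5 (4.99-fold) and Sesn2 (3.82-fold), and 0 higher. In the deposited values 7 of 18 were lower and 1 higher, against 7.69% and 13.5% of all genes.

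Upstream of Atf4 are the genes for the eIF2 kinases, initiation factors and phosphatase subunits. Of 15 measured, 0 reached 2-fold between the AGM lines and 2 reached it in OP9, both above AGM-s3-A7. These were Ppp1r15a, whose product GADD34 directs dephosphorylation of eIF2 (2.04-fold), and Impact, an inhibitor of Gcn2 (at least 2.94-fold on a suffixed probe set). The list's medians over AGM-s3-A7 were 0.06 in AGM-s3-A9 and 0.37 in OP9. In the deposited values 1 was higher and 0 lower by 2-fold in AGM-s3-A9, with a median of 0.60, against 12.8% and 3.24% of all genes. Compared with OP9, 3 were lower in AGM-s3-A9 (Eif2s2 at least 2.76-fold, Impact 2.41-fold and Ppp1r15a 2.02-fold) and 1 higher, the phosphatase subunit gene Ppp1ca (2.08-fold). Of 2 measured Eif2s2 probe sets only 1 was lower, and of 2 Ppp1ca probe sets, both higher, only 1 reached 2-fold. In the deposited values 0 of 15 were lower than in OP9 by 2-fold and 1 higher, against 7.69% and 13.5% of all genes. Under control scaling 2 were lower and 0 higher, against 4.68% and 7.39%.

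Of the amino acid and one-carbon enzymes outside the members, 1 of 12 reached 2-fold below AGM-s3-A7 in AGM-s3-A9, Psph (2.25-fold), and 1 of 14 reached it above in OP9, Aldh1l1 (4.02-fold). Between the supportive lines 4 of 14 were lower in AGM-s3-A9 (Aldh1l1 at least 4.43-fold, Psph 4.24-fold, Aldh18a1 2.29-fold and Mthfd1l at least 2.29-fold) and 0 higher. In the deposited values 4 of 14 were lower and 2 higher in that pair, against 7.69% and 13.5% of all genes. The medians over AGM-s3-A7 were -0.29 in AGM-s3-A9 and 0.03 in OP9, the latter beside 0.69 for the members. For AGM-s3-A9 the median was 0.08 in the deposited values and 0.09 under control scaling, so its sign depends on the scaling. The deposited Psph values were 191 in AGM-s3-A9 and 256 in AGM-s3-A7, less than 2-fold apart.

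The endoplasmic reticulum chaperones and the other branches of the unfolded protein response share Ddit3 with this pathway and were listed beside it. Of their 26 measured genes, 0 reached 2-fold in either comparison with AGM-s3-A7, and the medians were -0.09 for AGM-s3-A9 and -0.05 for OP9. In the deposited values 3 were higher and 1 lower by 2-fold in AGM-s3-A9, with a median of 0.48, against 12.8% and 3.24% of all genes. Hspa5, the gene of the chaperone BiP, read 1852 in OP9, 1476 in AGM-s3-A7 and 1816 in AGM-s3-A9. Between the supportive lines 2 differed by 2-fold or more, with AGM-s3-A9 above OP9, Hyou1 (2.68-fold) and Creb3l1 (2.51-fold), the reverse of the direction of the members. In the deposited values 7 of 26 were higher in AGM-s3-A9 and 2 lower, against 13.5% and 7.69% of all genes. Of 8 measured genes of the Nrf2 list, which shares Slc7a11 with the members, Hmox1, the heme oxygenase gene, alone reached 2-fold. It read 1877 in OP9, 914 in AGM-s3-A7 and 538 in AGM-s3-A9. OP9 was thus 2.05-fold above the non-supportive line and 3.49-fold above AGM-s3-A9. Slc3a2 is in both the Nrf2 list and that of the transporters. The log2 ratio of OP9 over AGM-s3-A7 was positive in 8 of the 8 Nrf2 list genes, beside 4651 of all 8739 genes, with a median of 0.41. That of AGM-s3-A9 over AGM-s3-A7 was positive in 5 and negative in 3, with a median of 0.13, beside 4346 and 4229 of all 8590 genes. In the deposited values these medians were 0.47 over 8 genes and 0.77 over 9.

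**Figure D4:**
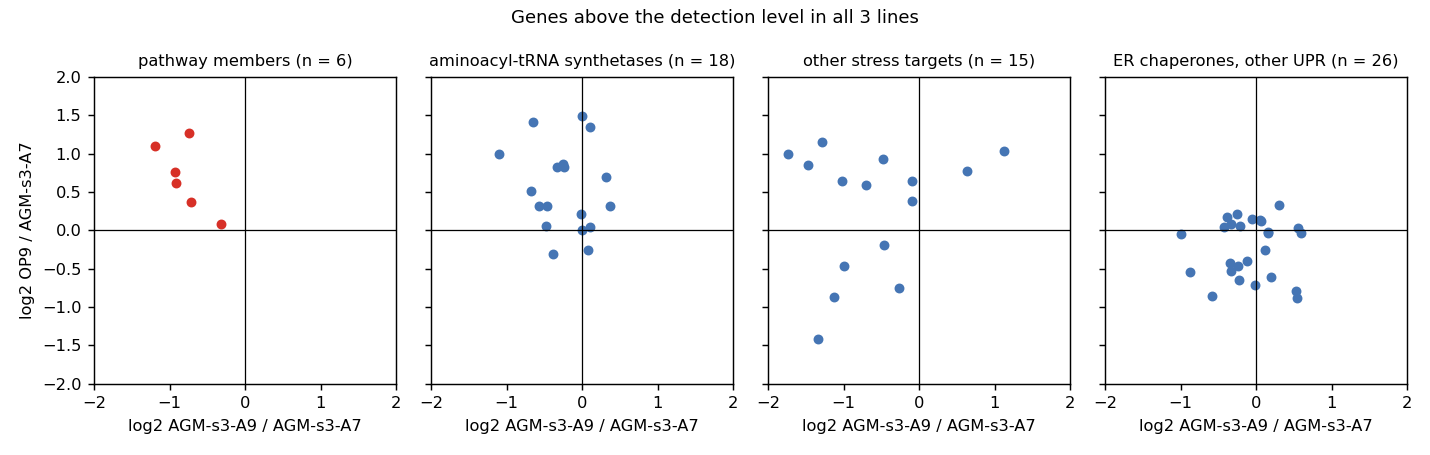
Log2 ratio over AGM-s3-A7 of AGM-s3-A9 (horizontal) and OP9 (vertical) for genes above the detection level in all 3 lines, 1 point per gene, for 6 members, 18 synthetase genes, 15 other stress targets and 26 genes of the endoplasmic reticulum (ER) and other unfolded protein response (UPR) list. Both axes share the AGM-s3-A7 arrays; all 6 members lie at the upper left, whereas the ER genes lie around or below 0 on the vertical axis.

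Of 7072 other genes above the detection level in all lines, those nearest to Atf4 in both log2 ratios against AGM-s3-A7 were Hfe, Klf13, Pcp2, Hax1 and Dpp7, at Euclidean distances of 0.047 to 0.057. With 3 lines such a likeness rests on 2 ratios, and none of the 5 is in the lists used here.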

How the data were processed

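Gene expression in 3 lines was read on 9 Affymetrix arrays; per the labels' protocols, biotinylated cRNA was made from 6 ug of total RNA. Each deposited value is a linear intensity of 1 probe set on 1 array; how the authors summarised and scaled probes is not given in the sources used here. Their trimmed means (2% at each end) differed by 61.1%, 49.8% and 49.7% on MG-U74A, MG-U74B and MG-U74C, so log2 intensities were quantile normalized within array type (a difference over 5% was the criterion). Probe sets with several symbols (724) or none (6846) and 198 controls were left unnamed; 34 controls per array type set the detection level. The brightest probe set stands for a gene. All members and, of each list, up to 4 genes at least 2-fold apart per direction and pair are named by rule; Hspa5, Epcam and Cdh1 were given for their role after their values were seen. The members and lists were chosen with earlier results of these data known, and the 2 robust SD measure was added after the data were examined. Normalization and fold calling were tested on simulated data, made of copies of a single array with even noise and a scale per array added. That tests the code and does not show how reliable the calls in these data are. Python 3.11.15, numpy 2.4.6 and pandas 2.3.3 were used. The number of arrays limits the precision: each line has 1 array per array type.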

Additional observations from a re-analysis of the deposited data

How the results depend on the processing

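Each count and median of the members was recomputed under 9 other choices of scaling, floor, probe set, array type and chromosome and 1 added after seeing the data. Of 90 such values 80 stayed within 1.5 times (counts) or within the robust SD estimated from probe set pairs (medians), and none of the medians changed sign. The median of AGM-s3-A9 against AGM-s3-A7 moved to -0.10 with deposited values and -0.40 with hybridisation control scaling, and that of AGM-s3-A9 against OP9 to -1.03 with deposited values. The count of members below AGM-s3-A7 in AGM-s3-A9, 1 as reported, was 0 with deposited values, 0 with control scaling, 0 with the median over probe sets and 2 with 75th percentile scaling. The count above AGM-s3-A7 in OP9, 4 as reported, was 2 with the 75th percentile as floor, 2 after subtracting chromosome medians and 2 among the members above the detection level in all 3 lines. Of 248 values of single members 34 moved by more than the robust SD and 0 differences of at least 2-fold changed sign. Several choices of floor, probe set and array type returned the same value for members read by a bright MG-U74A probe set. Asns is an example, at -1.20 between the AGM lines under several of them. The shares of 80 of 90 and 34 of 248 are therefore no measure of how firm the values are. No paired analysis was possible because each line has 1 array per array type and no replicate numbers. Signal near background limits Atf3, Phgdh, Slc7a11, Trib3 and the AGM-s3-A9 value of Ddit3: repeated control probe sets had an SD of the log2 ratio over array types of 0.97 to 1.02 at intensities below 128 and of 0.17 to 0.22 above. Outside the members, among others, the AGM-s3-A9 values of Gadd45a (94.4), Chac1 (115) and Ppp1r15a (118) also lay below 128, which limits their folds.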
